A study of Rattus norvegicus with 12 samples.

Results

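Rat right ventricular papillary muscles held long and nearly isometric were compared with muscles held short and allowed to shorten freely. The comparison took 6 of the 12 muscles of the study, chosen by their labels alone. In the high-stretch low-shortening group (3 muscles) the target mean stretch was 16% of slack length and the target cyclic shortening 4%. In the low-stretch high-shortening group (3 muscles) the targets were 4% mean stretch, which is still above slack length, and 16% shortening. Both mechanical inputs therefore differed at once and in opposite directions, so that the effects of stretch and of shortening cannot be told apart within this comparison. Each muscle came from its own adult LBNF1 rat, all of them male, and contracted under 1 Hz pacing in oxygenated medium at 37 °C for 12 h, with no untreated or freshly dissected muscle among the groups. RNA was hybridized to Affymetrix expression arrays, 1 array per muscle, and all 31042 probe sets that are not controls were tested on the log2 scale. The remaining groups were high stretch with high shortening and low stretch with low shortening, with 3 muscles each.

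Papillary muscles are small columns of ventricular muscle that tether the atrioventricular valves and bear load at every beat. Stretch of a cardiac myocyte is sensed at the Z-disc, along the giant spring protein titin and at the costameres, where integrins link the sarcomere to the matrix. Natriuretic peptides, immediate early transcription factors and matricellular proteins are classical transcripts of mechanically loaded heart muscle. A muscle that shortens against little resistance does external work at low force, whereas one held near constant length develops force with little work, so the 2 groups oppose length and motion.

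No probe set passed between the 2 groups. In limma, fitted to all 12 arrays with a mean per group, 0 of 31042 probe sets (0%) had an adjusted p under 0.05, and the smallest adjusted p was 0.755. At an unadjusted p under 0.05 there were 1815 probe sets (5.85%), while the Local Pooled Error method, run on the 16391 probe sets that the authors kept after filtering, called 52 (0.317%). In the same limma fit, 33.9% of probe sets were called between high stretch low shortening and low stretch low shortening, and 31.9% between low stretch high shortening and low stretch low shortening. No probe set was called between high stretch high shortening and either of the compared groups (0% in each). These comparisons share arrays, and their counts are given for scale only. Every rat of the low stretch low shortening group also had a higher labelled weight than any other rat of the study. The part of weight in the counts against this group, and in its values given below, was not tested.

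As whole profiles the 2 groups could not be told apart. Pearson's r over probe sets, which are not independent replicates, was 0.987 to 0.989 among the high-stretch low-shortening arrays, 0.989 to 0.994 among the low-stretch high-shortening arrays and 0.986 to 0.992 between them. The mean distance (1 minus r) between groups exceeded that within groups by 0.000118, with an exact two-sided permutation p of 0.9. With 3 arrays against 3 the smallest p is 0.1. The excess of 3' over 5' signal of the Gapdh and Actb control probe sets, a measure that rises as RNA shortens, was 3.09, 3.89 and 4.33 log2 in replicates 1, 2 and 3 of the high-stretch low-shortening group, against 3.27, 3.18 and 3.19 log2 in the low-stretch high-shortening group. Replicates 2 and 3 of the high-stretch low-shortening group thus lay above the other 4 arrays, while the means differed by 0.56 log2 (exact two-sided permutation p = 0.4, n = 3 each, adjusted p = 0.7 over 3 quantities). The other 2 quantities were labelled age, 78.0 ± 5.20 against 81.0 ± 5.20, and labelled weight, 274.0 ± 5.29 against 280.7 ± 14.6 (SD, n = 3 each, units not stated, exact permutation p = 0.5 and 0.7, both with an adjusted p of 0.7).

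The interval around each difference says how large a change the arrays could still hold. For genes, each was read from its probe set with the highest mean over all arrays, and 10318 of 14217 genes had a mean over the 6 arrays at or above the 40th percentile of probe sets (4.90 log2). Their median 95% confidence interval reached 0.32 log2 (1.25-fold) to either side, before any adjustment for the number of genes. It lay wholly within 2-fold for 9825 genes (95.2%) and within 1.5-fold for 7417 (71.9%). Only 17 of these genes differed by 2-fold or more between the group means. The median difference over all 10318 genes was -0.03 log2, with 5887 genes lower in the high-stretch low-shortening muscles and 4431 higher. An unadjusted p under 0.05 was found for 684 genes (6.63%), and the 2 groups did not overlap for 1025 genes (9.93%). Differences below are high stretch low shortening minus low stretch high shortening.

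Of 18 load-responsive genes followed whatever their values, none passed the test. Groups did not overlap for 2 of the 18, Nppa and, narrowly, Col1a1, a share close to that of all genes (9.93%). Nppa, the precursor of atrial natriuretic peptide, read 6.98, 7.09 and 7.14 log2 in the high-stretch low-shortening muscles, against 6.72, 6.65 and 6.56 log2 in the low-stretch high-shortening muscles. All 3 high-stretch arrays were above all 3 low-stretch arrays, at a difference of 0.42 log2 (SE 0.13, limma adjusted p = 0.782). Nppb, the precursor of brain natriuretic peptide and another secreted signal of wall stress, read 12.44, 13.07 and 12.50 log2 against 12.89, 12.28 and 12.27 log2. Its groups overlapped, and the difference of 0.19 log2 had a 95% interval of -0.32 to 0.70. Among the receptors and the protease of these peptides, Npr2, the receptor for C-type natriuretic peptide, read 6.93, 6.83 and 7.09 log2 against 7.30, 7.50 and 7.39 log2. Every high-stretch low-shortening array lay below every low-stretch high-shortening array (difference -0.45, SE 0.15, limma adjusted p = 0.799).

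**Figure D1:**
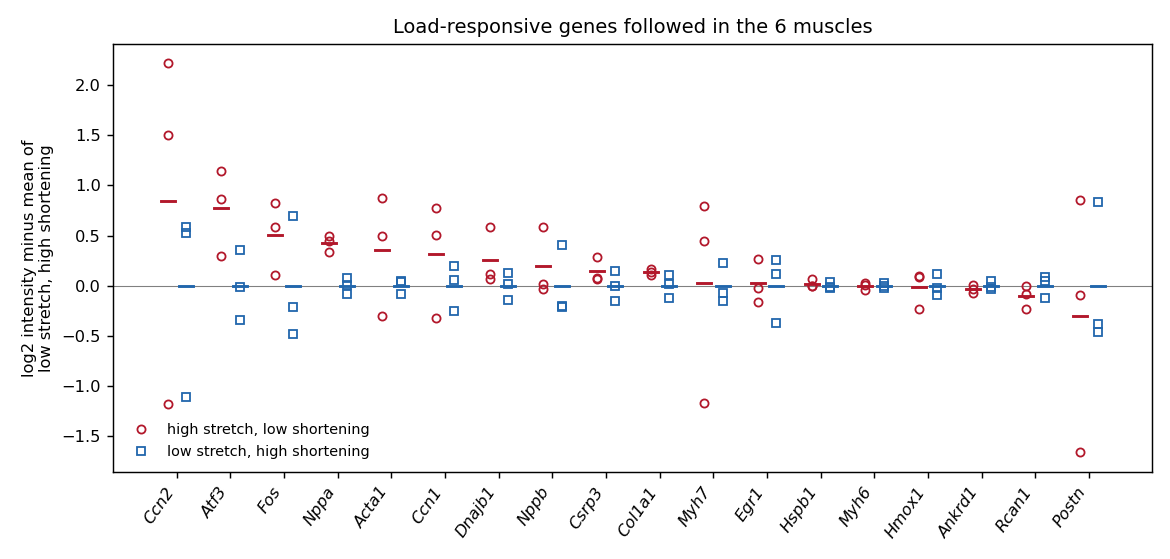
Log2 intensity of 18 load-responsive genes in each of the 6 muscles, minus the gene's mean in the low-stretch high-shortening group. Circles are the high-stretch low-shortening muscles and squares the low-stretch high-shortening muscles; bars are group means (n = 3 each). Nppa and Col1a1 are the genes whose groups do not overlap, while Ccn2, Postn and Myh7 spread most within the high-stretch low-shortening group.

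No contractile gene passed the test, and the width of the intervals varied between genes. Myh6, the fast alpha myosin heavy chain that dominates the adult rat ventricle, differed by -0.00 log2 with a 95% interval of -0.18 to 0.17. Myh7, the slow beta chain associated with pressure load, read 13.60, 13.25 and 11.64 log2 in the high-stretch low-shortening muscles, against 12.65, 12.73 and 13.03 log2 in the low-stretch high-shortening muscles. Replicate 3 of the high-stretch low-shortening group was the lowest of the 6 and replicates 1 and 2 the highest, so the spread was within the group (difference 0.03, interval -0.91 to 0.96). Acta1, skeletal alpha-actin and a member of the fetal program, read 10.89, 11.26 and 10.09 log2 against 10.43, 10.30 and 10.44 log2. Here too replicate 3 was the lowest of all 6 arrays (difference 0.36, interval -0.31 to 1.02), and the difference was 0.68 without it and 0.10 without replicate 2. Of 17 sarcomere genes above the intensity filter, 8 had a positive difference and 9 a negative one (median -0.00, against -0.03 over all genes). Groups did not overlap for 1 of the 17, on the lower side (5.88%, against 5.87% of all genes), which is the background share. This gene, the cardiac troponin inhibitory subunit Tnni3, read 13.05, 12.98 and 13.04 log2 in the high-stretch low-shortening muscles, against 13.27, 13.24 and 13.07 log2 in the low-stretch high-shortening muscles (difference -0.17, SE 0.09, limma adjusted p = 0.853).

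Of 20 genes of the Z-disc and the titin stretch sensors, 15 had a positive difference, with a median of 0.12 log2. None passed, and 1 had groups that did not overlap, higher in the high-stretch low-shortening muscles (5%, against 4.06% of all genes above the filter). Flnc, filamin C of the Z-disc, gave the largest difference, with 13.11, 12.81 and 13.18 log2 in the high-stretch low-shortening muscles and 12.62, 12.88 and 12.09 log2 in the low-stretch high-shortening muscles. A single low-stretch array, replicate 2, reached into the range of the other group (difference 0.51, SE 0.20, limma adjusted p = 0.825), and the Flnc difference was 0.29 without low-stretch replicate 3. A dimmer Flnc probe set gave 0.19 log2, with overlap. Ankrd2, a stretch-responsive ankyrin protein of the Z-disc and nucleus, differed by 0.44 log2 (interval -0.08 to 0.96), and by 0.19 without low-stretch replicate 2 or 0.23 without high-stretch replicate 1. Fhl1, a LIM protein of the titin spring, differed by 0.18 log2 in its brightest probe set and by 0.66 log2, with groups that did not overlap, in a dimmer one. Ankrd1, the cardiac ankyrin repeat protein, differed by -0.03 (interval -0.21 to 0.15) in its brightest probe set and by -0.26 in another bright one, against the direction of the list. Csrp3, muscle LIM protein, differed by 0.14 (interval -0.08 to 0.37). At the costamere, where 18 of 24 genes had a positive difference, the focal adhesion protein Zyx read 9.26, 9.14 and 9.13 log2 against 8.93, 8.94 and 8.87 log2. The dystroglycan gene Dag1 averaged 10.17 ± 0.03 log2 in the high-stretch low-shortening muscles and 9.97 ± 0.08 log2 in the low-stretch high-shortening muscles (SD, n = 3 each). Neither gene's groups overlapped, at differences of 0.26 log2 for Zyx and 0.20 log2 for Dag1 (limma adjusted p = 0.825 and 0.846). Other Dag1 probe sets gave 0.06 and 0.12 log2, and -0.09 log2 in one under the filter, all with overlap. Of the 24 genes, groups did not overlap for 3, all higher (12.5%, against 4.06% of all genes). The integrin gene Itgb3 differed by -0.39 log2, with overlap.

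Immediate early genes, transcription factors induced within minutes of a stimulus, lay mostly on the high-stretch low-shortening side. Of 23 above the filter, 21 had a positive difference (91.3%, against 42.9% of all genes), with a median of 0.17 log2. None passed limma's adjusted threshold, 3 had an unadjusted p under 0.05 and were higher (13.0%, against 1.99% of all genes), and 2 had groups that did not overlap, both higher (8.7%, against 4.06% of all genes). Atf3, a stress-induced partner of Jun proteins, read 10.87, 11.71 and 11.43 log2 in the high-stretch low-shortening muscles, against 10.93, 10.22 and 10.55 log2 in the low-stretch high-shortening muscles. High-stretch replicate 1 fell just below low-stretch replicate 1 (difference 0.77, SE 0.28, limma adjusted p = 0.818). Klf6, a zinc finger factor of the injury response, read 10.22, 10.36 and 10.42 log2 against 10.19, 9.77 and 9.48 log2. Its groups did not overlap by a narrow margin (difference 0.52, SE 0.22, limma adjusted p = 0.828), and the other Klf6 probe sets gave 0.46 log2 without overlap and 0.54 log2 with it. Fos, the AP-1 subunit, read 11.79, 12.50 and 12.27 log2 in the high-stretch low-shortening muscles, against 12.38, 11.20 and 11.47 log2 in the low-stretch high-shortening muscles. One low-stretch array was thus among the highest of the 6 (difference 0.50, interval -0.20 to 1.21), and the Fos difference was 0.85 without it and 0.26 without low-stretch replicate 2. Egr1 differed by 0.02 log2 (interval -0.45 to 0.50). Averaged over the 23 genes, deviations from each gene's mean over the 6 arrays were 0.19, -0.12 and 0.26 log2 in high-stretch low-shortening replicates 1 to 3, against 0.12, -0.20 and -0.25 log2 in the low-stretch high-shortening replicates. The groups overlapped in this average, since high-stretch replicate 2 lay below low-stretch replicate 1. MAPK feedback genes, which the same kinases induce, had 3 of 10 positive differences (median -0.08).

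Inflammatory genes lay mostly on the other side. Of 32 genes of cytokines and NF-kB signalling, 23 had a negative difference (71.9%, against 57.1% of all genes), with a median of -0.22 log2, and 5 had an unadjusted p under 0.05 (15.6%, against 4.64% of all genes), all lower in the high-stretch low-shortening muscles. None of the 32 passed and none had groups that did not overlap. Nfkbia, the inhibitor and target of NF-kB, read 9.55, 8.96 and 9.27 log2 in the high-stretch low-shortening muscles, against 9.77, 9.46 and 10.10 log2 in the low-stretch high-shortening muscles. High-stretch replicate 1 reached above low-stretch replicate 2 (difference -0.51, SE 0.19, limma adjusted p = 0.819). Tnfaip6, a hyaluronan-binding protein of inflamed matrix, read 9.88, 8.75 and 9.44 log2 against 10.43, 9.56 and 10.65 log2 (difference -0.86, SE 0.33, limma adjusted p = 0.825). Il1b, the inflammasome cytokine, read 9.68, 9.24 and 9.74 log2 against 10.05, 9.60 and 10.44 log2. In each of these genes low-stretch replicate 3 was the highest array and high-stretch replicate 2 the lowest. The Tnfaip6 difference was -0.55 without high-stretch replicate 2, and the Il1b difference of -0.48 was -0.27 without low-stretch replicate 3. The average over the 32 genes showed the same arrays at its ends, with -0.07, -0.42 and 0.09 log2 in the high-stretch low-shortening replicates, against 0.22, -0.29 and 0.46 log2 in the low-stretch high-shortening replicates. Low-stretch replicate 2 thus lay within the range of the high-stretch arrays. Of 21 chemokines 16 had a negative difference (median -0.11). Cxcl12, a homing signal for CXCR4-bearing cells, differed by -0.58 log2, and by -0.30 without high-stretch replicate 1. The neutrophil chemokine Cxcl2 differed by -0.65 log2, and by -0.18 without high-stretch replicate 2. The largest difference of the list had the opposite sign, 0.73 log2 in the lymphoid chemokine Ccl21, which was named after its value was seen. Macrophage markers, of which 5 of 7 were above the filter, averaged 5.60 to 6.21 log2 in the high-stretch low-shortening muscles and 5.62 to 5.96 log2 in the low-stretch high-shortening muscles. None of 3 neutrophil, 4 lymphocyte and 4 adipocyte markers was above the filter.

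**Figure D2:**
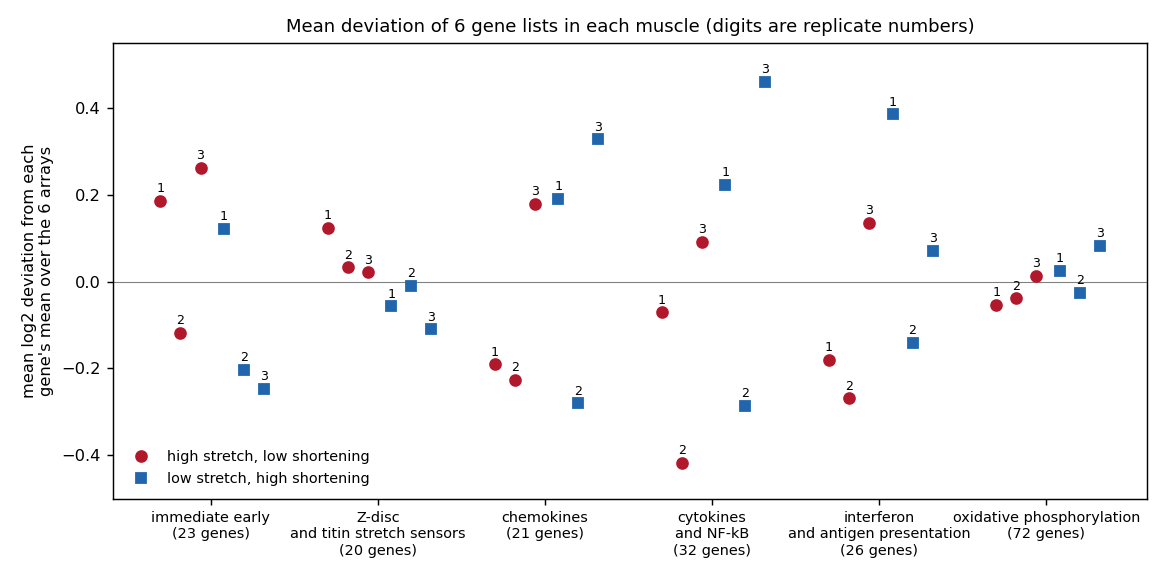
Mean log2 deviation of 6 gene lists in each muscle, where each gene is taken relative to its own mean over the 6 arrays. Circles are high-stretch low-shortening and squares low-stretch high-shortening muscles, and digits are replicate numbers. The Z-disc list is the one of the 6 with groups that do not overlap, while the cytokine list runs from -0.42 in high-stretch low-shortening replicate 2 to 0.46 in low-stretch high-shortening replicate 3.

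Genes of the interferon response and of antigen presentation had a negative difference in 20 of 26 cases, with a median of -0.20 log2. Groups did not overlap for 3, all lower in the high-stretch low-shortening muscles (11.5%, against 5.87% of all genes above the filter), and none passed. Irf1, a transcription factor induced by interferon gamma, read 8.24, 8.64 and 8.56 log2 in the high-stretch low-shortening muscles, against 9.26, 8.87 and 9.08 log2 in the low-stretch high-shortening muscles. The 2 groups stood clear of each other, at a difference of -0.59 log2 (SE 0.15, limma adjusted p = 0.755). Gbp2, an interferon-induced GTPase, differed by -0.67 log2, with overlap, and by -0.27 without high-stretch replicate 1. Among apoptosis genes, Cflar, the inhibitor of caspase 8 activation, read 8.41, 8.40 and 8.09 log2 against 8.83, 8.59 and 9.02 log2. Casp4, an inflammatory caspase, read 7.06, 7.57 and 7.42 log2 against 7.92, 7.67 and 8.25 log2. Neither gene's groups overlapped (-0.51 and -0.59 log2, limma adjusted p = 0.755 and 0.817), but a second Cflar probe set gave -0.18 log2 with overlap. Cflar and Casp4 were the 2 of 23 apoptosis genes without overlap (8.7%, against 5.87% of all genes on the lower side). The list as a whole was balanced, with 11 positive and 12 negative differences.

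**Figure D3:**
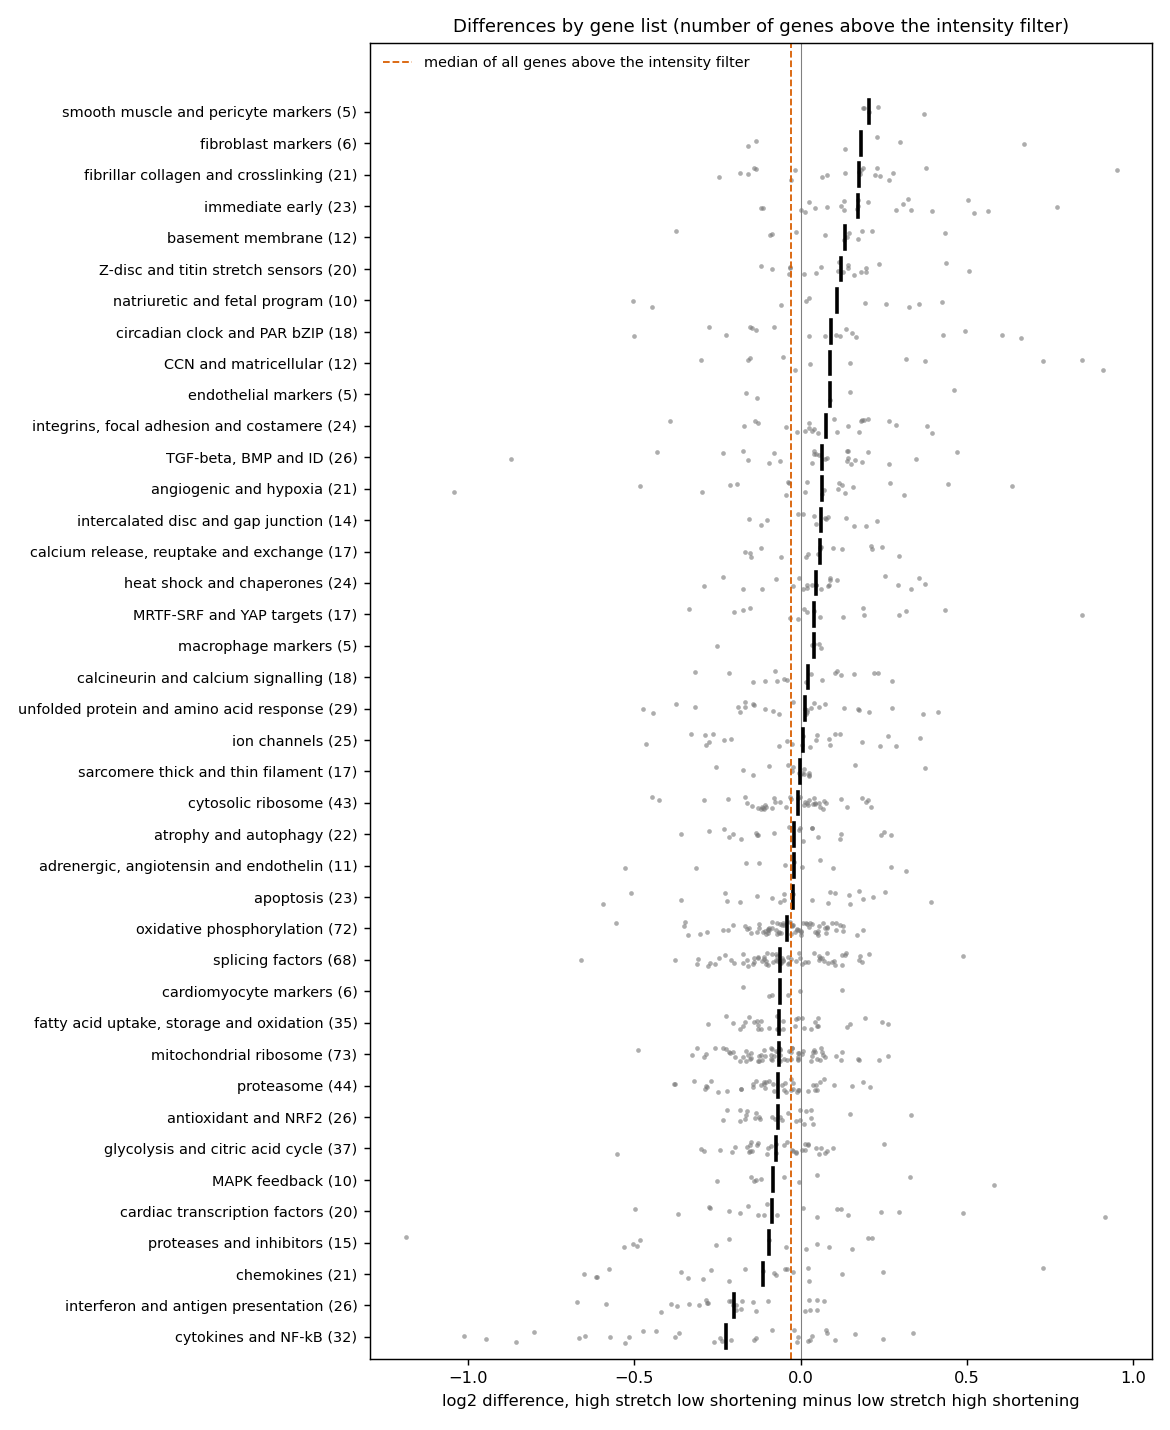
Log2 differences of single genes (grey points) and their median (black bar) in each gene list with at least 5 genes above the intensity filter, high stretch low shortening minus low stretch high shortening. Numbers in brackets are genes above the filter and the dashed line is the median of all 10318 genes (-0.03); the cytokine list has the lowest median (-0.22) and the smooth muscle and pericyte markers the highest (0.21).

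Matrix genes had a positive median difference, and the fibroblast markers were mixed in sign. Of 21 genes of fibrillar collagen and crosslinking, 14 had a positive difference (median 0.18 log2). Groups did not overlap for 4, all higher in the high-stretch low-shortening muscles (19.0%, against 4.06% of all genes). Averaged over the 21 genes, deviations from each gene's mean were 0.14, -0.01 and 0.06 log2 in the high-stretch low-shortening replicates. They were -0.16, 0.16 and -0.19 log2 in the low-stretch high-shortening replicates, where replicate 2 was the highest of all 6 arrays. Fbn1, fibrillin-1 of the microfibrils, read 7.74, 8.12 and 7.86 log2 in the high-stretch low-shortening muscles, against 7.15, 7.55 and 6.17 log2 in the low-stretch high-shortening muscles. The 2 groups did not overlap, and low-stretch replicate 3 was far below the rest (difference 0.95, SE 0.28, limma adjusted p = 0.782), and without it the Fbn1 difference was 0.56. A second Fbn1 probe set gave 0.73 log2, again without overlap. Pdgfra, the platelet-derived growth factor receptor that marks cardiac fibroblasts, averaged 10.10 ± 0.10 log2 in the high-stretch low-shortening muscles and 9.43 ± 0.43 log2 in the low-stretch high-shortening muscles, without overlap (SD, n = 3 each). The difference was 0.67 log2 (SE 0.23, limma adjusted p = 0.799). The 6 fibroblast markers, all above the filter, averaged 8.52 to 8.72 log2 in the high-stretch low-shortening muscles and 8.24 to 8.52 log2 in the low-stretch high-shortening muscles. Groups did not overlap for 3 of the 6, all higher (50%, against 4.06% of all genes). Of the 6, 4 had a positive difference and 2 a negative one, the matrix proteoglycans Lum (-0.16) and Dcn (-0.13), the second named after its value was seen. In tissue, more fibroblasts and more RNA per fibroblast cannot be told apart, and the part of these markers in the matrix values was not tested. Col1a1, the main collagen I chain, differed by 0.13 log2 (interval -0.16 to 0.43) at a low intensity of 5.18 to 5.47 log2. Of the matricellular genes, Ccn2, a target of transforming growth factor beta and of stretch, read 11.01, 8.33 and 11.72 log2 in the high-stretch low-shortening muscles, against 10.03, 10.10 and 8.40 log2 in the low-stretch high-shortening muscles. The lowest array of each group lay more than 1.5 log2 below the others, and the interval of the difference of 0.85 ran from -0.87 to 2.57. With each of the 6 arrays left out in turn, the Ccn2 difference ran from 0.16 to 1.86. Postn, periostin of activated fibroblasts, also spread widely (9.14, 6.62 and 8.19 log2 against 7.83, 9.12 and 7.90 log2). The immediate matricellular gene Ccn1 differed by 0.32 log2 (interval -0.37 to 1.00), and by 0.09 without high-stretch replicate 3 or 0.64 without high-stretch replicate 1.

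Metabolic gene lists had small negative medians, beside a median of -0.03 log2 over all genes. Of 72 oxidative phosphorylation genes, 45 had a negative difference (62.5%, against 57.1% of all genes) and the median was -0.04 log2. Groups did not overlap for 11 of them on the lower side (15.3%, against 5.87% of all genes) and for 4 on the higher side (5.56%, against 4.06% of all genes), and none passed. Ndufs3, a core subunit of complex I, read 10.91, 10.91 and 10.82 log2 in the high-stretch low-shortening muscles, against 11.33, 11.11 and 11.22 log2 in the low-stretch high-shortening muscles. The difference of -0.34 log2 (SE 0.10) did not pass in limma (adjusted p = 0.780). Of 37 glycolysis and citric acid cycle genes, groups did not overlap for 5, all lower (13.5%, against 5.87% of all genes), and none passed. Among these 5 were the iron-sulfur subunit Sdhb and the membrane subunit Sdhc of succinate dehydrogenase. Sdhb read 12.28, 12.13 and 12.18 log2 against 12.61, 12.43 and 12.45 log2, and Sdhc differed by -0.24 log2. The mitochondrial ribosome had 53 of 73 genes with a negative difference (median -0.07) and 8 without overlap on that side (11%, against 5.87% of all genes). Averaged over the 73 genes, deviations from each gene's mean were -0.17, 0.02 and 0.05 log2 in the high-stretch low-shortening replicates. They were 0.03, -0.04 and 0.11 log2 in the low-stretch high-shortening replicates, so the groups overlapped. Fatty acid genes had 23 of 35 negative (median -0.06) and the proteasome 33 of 44 (median -0.07), with no single gene past limma's threshold. The cytosolic ribosome was near balance, with 23 of 43 negative (median -0.01).

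No gene of the remaining lists passed. Heat shock and chaperone genes differed by between -0.29 and 0.37 log2 in all 24 cases, with no gene at an unadjusted p under 0.05, and Dnajb1, a co-chaperone of Hsp70, differed by 0.25 log2 (interval -0.15 to 0.66). Calcium handling genes ranged from -0.17 to 0.30 log2 (17 genes), and groups did not overlap for 2, both higher (11.8%, against 4.06% of all genes). Slc8a1, the sodium-calcium exchanger, read 12.41, 12.53 and 12.63 log2 in the high-stretch low-shortening muscles, against 12.38, 12.41 and 12.15 log2 in the low-stretch high-shortening muscles, which left almost no gap between the groups, and the other was the junctophilin gene Jph1 (0.21). Of 25 ion channels, groups did not overlap for 2 on the higher side and 2 on the lower side (8% each, against 4.06% and 5.87% of all genes). The pacemaker channel Hcn4 differed by 0.29 log2 and the T-type calcium channel Cacna1g by 0.26 log2. On the lower side the ATP-sensitive potassium channel subunit Kcnj8 differed by -0.33 log2 and the stretch-activated channel Piezo1, named after its value was seen, by -0.29 log2. Of 22 atrophy and autophagy genes, groups did not overlap for 3 on the lower side (13.6%, against 5.87%) and 1 on the higher side (4.55%, against 4.06%). Mul1, a mitochondrial ubiquitin ligase, differed by -0.36 log2 and Lamp2, a lysosomal membrane protein, by 0.27 log2. The autophagy genes Becn1 and Sqstm1, both -0.13 and named after their values were seen, were the other 2 on the lower side. Herpud1, a component of endoplasmic reticulum degradation, read 11.83, 12.01 and 12.36 log2 against 12.56, 12.43 and 12.55 log2 (difference -0.44, limma adjusted p = 0.799). Circadian genes were mixed, with Hlf at -0.50 log2 (-0.26 without low-stretch replicate 3) and Nr1d1, the repressor REV-ERB alpha, at 0.61 log2 (0.31 without high-stretch replicate 3). The stress enzyme Hmox1 and the calcineurin regulator Rcan1 differed by -0.01 and -0.11 log2, with intervals of -0.32 to 0.29 and -0.32 to 0.11. The small heat shock protein Hspb1 differed by 0.02 log2 (interval -0.16 to 0.20). Hspa1b and Xirp2, also chosen for following, had no probe set of their own name in the table used.

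The 12 largest positive differences among genes with groups that did not overlap and an unadjusted p under 0.05 ran from 0.64 to 1.36 log2. They were chosen for this difference, so their values are a description. Ryr3, a ryanodine receptor for calcium release that is scarce in ventricle, read 6.57, 6.93 and 6.43 log2 in the high-stretch low-shortening muscles, against 5.92, 5.85 and 4.07 log2 in the low-stretch high-shortening muscles (difference 1.36, SE 0.40, limma adjusted p = 0.782). Low-stretch replicate 3 lay under the intensity filter, and without it the Ryr3 difference was 0.76. Scn3b, an auxiliary sodium channel subunit, read 10.01, 10.22 and 8.51 log2 against 8.32, 8.03 and 8.41 log2. Replicates 1 and 2 of the high-stretch low-shortening group stood well above the other 4 arrays, and a second Scn3b probe set gave 1.15 log2 against 1.33 in the first. Bmp5, a bone morphogenetic protein, had the same pattern, with 6.49, 6.40 and 5.22 log2 against 4.49, 4.88 and 4.79 log2, where all 3 low-stretch arrays lay under the filter. Ephb3, a receptor for membrane-bound ephrins, read 7.44, 6.51 and 6.33 log2 against 5.84, 5.88 and 5.42 log2. Its 3 low-stretch arrays lay together and below every high-stretch array (difference 1.05, SE 0.24, limma adjusted p = 0.755). Adm, the vasodilator adrenomedullin, read 8.17, 8.50 and 7.69 log2 against 7.39, 7.60 and 7.47 log2, and averaged 10.46 log2 in the low stretch low shortening group. The others were the amino acid transporter Slc38a4 (1.00), Fbn1 (0.95), Fhad1 (0.80), the G protein regulator Rgs1 (0.69), the purine enzyme Xdh (0.68), Pdgfra (0.67) and the RNA-binding protein Igf2bp2 (0.67). Second probe sets gave 0.28 log2 for Igf2bp2 and, under the filter, 0.26 log2 for Bmp5, both with overlap. Bmp5 and Slc38a4 had a low-stretch mean under the filter (4.72 and 4.85 log2), so they passed it only through the group where they were high. The Slc38a4 difference was 0.61 without low-stretch replicate 3.

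The 12 largest negative differences chosen in the same way ran from -1.30 to -0.74 log2. Inhca, an inhibitor of carbonic anhydrase, read 7.58, 6.88 and 8.71 log2 in the high-stretch low-shortening muscles, against 9.32, 8.82 and 8.93 log2 in the low-stretch high-shortening muscles (difference -1.30, SE 0.36, limma adjusted p = 0.773). High-stretch replicate 3 almost met the low-stretch arrays. A second Inhca probe set, under the filter, gave 0.03 log2 with overlap. Ccnj, a cyclin, read 7.73, 6.79 and 7.85 log2 against 8.29, 8.58 and 8.62 log2. Mios, a component of the GATOR2 complex that relays amino acid supply to mTORC1, read 6.61, 6.27 and 6.94 log2 against 7.19, 7.45 and 7.47 log2 (difference -0.76, SE 0.16, limma adjusted p = 0.755). Another Mios probe set, at a mean of 6.12 log2, gave 0.14, the opposite sign. Phldb2, which anchors microtubules near adhesions, read 6.19, 6.28 and 6.52 log2 against 6.80, 7.46 and 7.03 log2, and its second probe set gave -0.17. For Ess2, a nuclear protein linked to splicing, the probe sets also differed, at -0.84 and 0.03. The others were the zinc finger genes Zik1 (-0.91) and Zfp3 (-0.87), Fam241b (-0.88), Tmem196 (-0.81), the mRNA export factor Nxt2 (-0.75), the histone gene H4cl1 (-0.74) and the SUMO enhancer Rwdd3 (-0.74). A second Rwdd3 probe set, under the filter, gave -0.01 log2 with overlap. Zik1 passed the filter only through the low-stretch high-shortening group, since its high-stretch low-shortening mean was 4.61 log2. The Tmem196 difference was -0.34 without high-stretch replicate 1, and that of Nxt2 was -0.48 without high-stretch replicate 3.

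**Figure D4:**
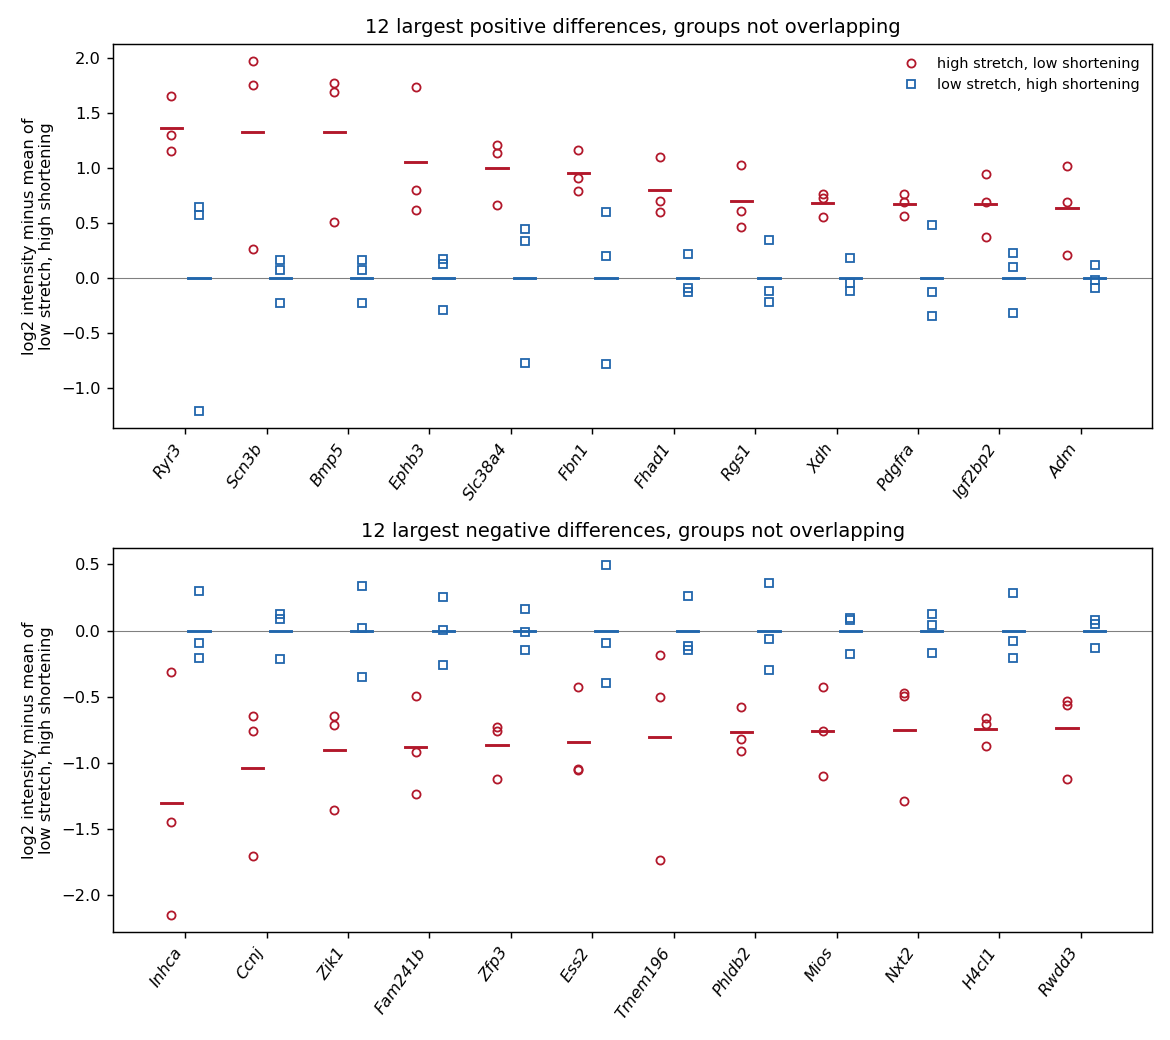
Log2 intensity in each muscle of the 12 genes with the largest positive (top) and the 12 with the largest negative differences (bottom), minus the gene's mean in the low-stretch high-shortening group, among genes with an unadjusted p under 0.05 and groups that do not overlap. Circles are high-stretch low-shortening and squares low-stretch high-shortening muscles, and bars are group means (n = 3 each). Within both groups single muscles stand away from the others, as in Scn3b, Inhca and Ryr3, and the smallest limma adjusted p among the 24 genes is 0.755.

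The labelled tissue was checked by the 6 cardiomyocyte markers, all above the filter, which averaged 13.31 to 13.43 log2 in the high-stretch low-shortening muscles and 13.41 to 13.46 log2 in the low-stretch high-shortening muscles. Endothelial markers, 5 of 5 above the filter, averaged 8.02 to 8.06 log2 against 7.68 to 8.17 log2. Smooth muscle and pericyte markers, 5 of 6 above the filter, averaged 5.44 to 5.98 log2 against 5.37 to 5.62 log2, with a positive difference in all 5 genes above the filter. Of 4 skeletal muscle markers Myh1 alone was above the filter, and its assignment is uncertain because myosin chains are near-identical in sequence. Purkinje fibre markers averaged 6.23 to 6.44 log2 in the high-stretch low-shortening muscles and 6.20 to 6.41 log2 in the low-stretch high-shortening muscles.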

How the data were processed

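Total RNA (100 ng per muscle) was labelled and hybridized to Affymetrix 3' expression arrays, per the labels' protocols. The authors deposited log2 intensities made by RMA, per the submitters' processing notes, whose version was not stated. The 57 control probe sets were left out of tests. Gene symbols came from the platform annotation, updated by gene number to RefSeq (GRCr8): 20826 probe sets had 1 symbol, 436 several and 9780 none, and genes were counted from the first kind only. Limma 3.58.1 (R 4.3.3) was fitted to all 31042 other probe sets in all 12 arrays with a mean per group, with the Benjamini-Hochberg method applied across them all (threshold 0.05). Values named "SE" are moderated, and intervals are 95%.

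Members, gene lists and tests were chosen with earlier results of these data known. Named genes were the 12 largest differences of each sign with groups that did not overlap and an unadjusted p under 0.05, 20 genes followed throughout, and up to 4 per list by smallest p. The 48 lists were described by counts and medians. Same-numbered muscles of the 2 groups were treated as unpaired. Their residual r was -0.11, -0.06 and -0.01, against -0.10 to 0.15 between differently numbered muscles. With so few arrays per group, these values cannot show whether muscles were handled together. The fit was tested on simulated data. Per the file headers, the authors kept 16391 probe sets over an intensity of 50 and used the Local Pooled Error algorithm, which was rewritten here from its description. Alternatives covered the arrays fitted, filters, normalization, covariates, a replicate block, array weights and leaving out each array. The precision is limited by 3 arrays per group. Figures used matplotlib 3.10.9.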

Additional observations from a re-analysis of the deposited data

How the results depend on the processing

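Limma called 0 probe sets in the comparison under a threshold of 0.1, in the 6 arrays alone, without the low stretch low shortening group, with the intensity filter, with 1 probe set per gene, with the mean of probe sets, in the authors' filtered table, after repeated quantile normalization, with a trended robust prior, with array weights, with dim values raised to the filter, and with the 3' to 5' excess, labelled age or labelled weight as a covariate. With the replicate number as a block (replicate block) it also called 0. The Local Pooled Error test called 52 probe sets. Groups overlapped for 42 of the 52 and did not for 10, where 9.93% of all genes above the filter had no overlap. The test takes its error from probe sets of like intensity and not from the probe set's own replicates. Leaving out each of the 6 arrays gave 0 to 1 calls, the 1 call being an unnamed probe set without high stretch low shortening replicate 1. Counts at an unadjusted p under 0.05 in all 31042 probe sets ran from 1307 with dim values raised to 2660 with age as a covariate. Of 200 named genes, 188 could be tested by the Local Pooled Error test, which called 9. No other fit called any of the 200. Up to 14, with the 3' to 5' excess as a covariate, changed sign, none of them among the 24 largest differences. With 3 arrays per group the median 95% interval reached 0.32 log2 to either side, before adjustment for the number of genes. Larger differences, such as 1.36 log2 in Ryr3 and -1.30 log2 in Inhca, did not pass limma's adjusted threshold.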

Other observations

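Genes called by the Local Pooled Error test alone are given here by values; all but Mmp9 were named after their values were seen. Of the 52 probe sets, 33 carried 1 symbol (32 genes), 29 were higher and 23 lower in the high-stretch low-shortening muscles, and none passed limma, where the smallest adjusted p among them was 0.755. The cytokines Il6 and Tslp and the protease Mmp9 were among the probe sets on the lower side. Il6, the acute-phase cytokine, read 12.53, 10.83 and 11.72 log2 in the high-stretch low-shortening muscles, against 12.98, 11.91 and 13.03 log2 in the low-stretch high-shortening muscles. Tslp, an epithelial cytokine, read 5.71, 4.10 and 6.57 log2 against 7.99, 6.19 and 8.61 log2. In both genes replicate 2 was the lowest muscle of its own group, and the groups overlapped. Mmp9, gelatinase B, read 8.30, 6.82 and 9.02 log2 against 9.64, 9.68 and 8.38 log2, and its difference of -1.19 was -0.58 without high-stretch replicate 2. Creb5, a CRE-binding transcription factor, read 4.33, 4.45 and 4.88 log2 against 5.23, 5.71 and 5.84 log2, with no overlap in the called probe set. Every high-stretch array of this probe set lay under the intensity filter of 4.90 log2, so it passed only through the group where it was high. The brightest Creb5 probe set had a difference of 0.37 log2. On the higher side, Lrrfip1, a nucleic acid-binding regulator, read 7.37, 7.91 and 8.09 log2 in the high-stretch low-shortening muscles, against 6.61, 6.92 and 6.53 log2 in the low-stretch high-shortening muscles, again with no overlap; the brightest Lrrfip1 probe set had a difference of 0.55 log2. Bdnf, a neurotrophin, read 7.82, 9.25 and 10.20 log2 against 8.75, 8.12 and 8.07 log2, with overlap.

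The unnamed probe set 1375108_at read 12.73, 10.82 and 10.50 log2 in the high-stretch low-shortening muscles, against 12.64, 12.96 and 12.96 log2 in the low-stretch high-shortening muscles. Its difference was -1.50 log2 (SE 0.43, limma adjusted p = 0.782) in all arrays and -2.19 (limma adjusted p = 0.00709) without high-stretch replicate 1. Replicates 2 and 3, the low arrays, are those with 3' to 5' excesses of 3.89 and 4.33 log2, and the part of RNA quality in this value was not tested. The probe set read 12.79 to 13.48 log2 with high stretch and high shortening and 14.28 to 14.39 log2 with low stretch and low shortening.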
